A study of Mus musculus with 2 samples.

Results

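Chemokine ligands are small secreted proteins that steer leukocytes through tissue. The 38 genes described here are the rows of the expression table whose symbol begins with Ccl, Cxcl, Cx3cl or Xcl followed by a number, out of 27275 rows in all. They were measured by RNA-seq in small intestine of naive mice, in 2 libraries from 2 genotypes. The wild-type library carries the genotype label Spib+Villin-Cre and the knockout library the label Spibfl/flVillin-Cre. Spib encodes an ETS family transcription factor. The knockout loses the floxed gene where Cre is made, under a villin promoter that works in intestinal epithelium and not in immune or stromal cells. Both labels name Villin-Cre. The design text places the tissue in the proximal small intestine, and age, sex, strain and the number of mice behind each library are not stated there or in the labels.

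Chemokines bind G protein-coupled receptors on leukocytes and are held on glycosaminoglycans, so that cells follow the local source. In the intestine, epithelium makes CCL25 and CCL28, which draw T cells with CCR9 and antibody-secreting cells with CCR10, and the epithelium over lymphoid follicles makes CCL20. CXCL13, CCL19 and CCL21 organise B and T cell zones of lymphoid follicles, interferon-induced CXCL9, CXCL10 and CXCL11 draw T cells through CXCR3, and the eotaxins CCL11 and CCL24 draw eosinophils through CCR3.

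There was 1 library per genotype, so no spread between mice is known, no test of genotype was possible and every difference below is a difference between 2 libraries. Values are FPKM, that is, reads scaled to gene length and library depth. The deposited values stepped in whole reads for all 38 members, which put the depth of the wild-type library at 17425640 reads and that of the knockout library at 17658566. Folds are plain FPKM ratios, each with an exact Clopper-Pearson 95% interval that treats reads as independent molecules and covers no error but that of counting. In whole tissue, fewer cells of a type and less RNA per cell cannot be told apart. Spib itself had 4.94 FPKM in the wild-type and 0.592 FPKM in the knockout library, in the direction of the labels. The epithelial markers Epcam, Krt8, Krt19, Cdh1 and Vil1 summed to 4930 and 4997 FPKM. The 4 B cell markers and the 5 T cell markers read here were all lower in the knockout library. Each had a counting interval below 1, against 23.5% of all genes with at least 10 reads. The part of lymphocyte content in the Spib value was not tested.

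The promoters of 4 ligands with lower FPKM in the knockout library are shown first. All are known to be induced by interferon or NF-kB signalling and have a RefSeq window. They are the interferon-induced neighbours Cxcl9 and Cxcl10, the follicle chemokine Cxcl13 and the follicle-epithelium chemokine Ccl20, whose counting interval spans 1. The 4 are a pick made with the values known. Ccl19, Cxcl1, Cxcl14 and Ccl1 were also lower, with a match in their windows to a motif marked below, and are not shown. Of these, only Cxcl14 had an interval that left out 1. Each line gives the 250 bases before the RefSeq start site in build GRCm38.p6, 5′ to 3′ on the strand of the gene, with matches to the interferon-stimulated response element (GAAANNGAAA) and to the kappa-B site in capitals. The regions are chr5:92328080-92328329 (minus strand) for Cxcl9, chr5:92348890-92349139 (minus strand) for Cxcl10, chr5:95956689-95956938 (plus strand) for Cxcl13 and chr1:83116516-83116765 (plus strand) for Ccl20.
Cxcl9: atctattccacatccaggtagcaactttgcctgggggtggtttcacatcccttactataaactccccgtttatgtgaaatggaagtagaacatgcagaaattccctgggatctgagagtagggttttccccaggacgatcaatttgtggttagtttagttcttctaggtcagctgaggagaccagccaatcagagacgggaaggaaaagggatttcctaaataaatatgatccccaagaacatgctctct
Cxcl10: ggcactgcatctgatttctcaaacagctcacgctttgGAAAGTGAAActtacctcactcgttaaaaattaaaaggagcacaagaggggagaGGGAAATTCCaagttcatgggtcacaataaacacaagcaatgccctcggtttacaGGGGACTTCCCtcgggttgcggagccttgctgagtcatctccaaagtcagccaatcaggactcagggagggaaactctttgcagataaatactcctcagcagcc
Cxcl13: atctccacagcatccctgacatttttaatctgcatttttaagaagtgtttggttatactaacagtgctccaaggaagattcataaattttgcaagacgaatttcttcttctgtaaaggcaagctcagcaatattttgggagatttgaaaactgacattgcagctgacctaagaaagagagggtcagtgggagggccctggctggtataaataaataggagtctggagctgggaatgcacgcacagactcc
Ccl20: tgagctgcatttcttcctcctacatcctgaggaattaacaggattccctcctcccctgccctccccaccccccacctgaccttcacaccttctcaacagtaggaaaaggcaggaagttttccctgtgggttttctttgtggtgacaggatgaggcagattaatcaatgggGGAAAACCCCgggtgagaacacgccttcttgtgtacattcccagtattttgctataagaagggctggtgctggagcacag

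The Cxcl10 window held 1 interferon-stimulated response element, from -213 to -204 relative to the start site, and kappa-B matches from -159 to -150 and in an overlapping group from -104 to -94. The Ccl20 window held 1 kappa-B match on the opposite strand, from -80 to -71, and the PU-box core GAGGAA bound by ETS factors at -222 to -217 and, on the opposite strand, at -237 to -232. The Cxcl9 and Cxcl13 windows held no match to these 3 motifs nor to the gamma-activated site TTCNNNGAA and the STAT6 site TTCNNNNGAA, which says only that these letters are not in the window searched. RefSeq gave a window of 300 bases, 250 before and 50 after the start, for 25 of the 38 members, in 28 windows. On either strand, the interferon-stimulated response element was in 3 of the 28 (Ccl19, Cxcl10 and Cxcl14) and in 3.44% of all 32851 promoter windows. The kappa-B site was in 8 of the 28 and in 8.46% of all windows, and the PU-box core in 10 of the 28 and in 28.3% of all. The gamma-activated site was in 2 of the 28 (Ccl17 and Cxcl14) and in 8.30% of all, and the STAT6 site in 1 (Ccl17) and in 6.95% of all. A kappa-B match that reads the same on both strands was counted once per window, and a match is a stretch of letters and not a site shown to be bound.

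Summed over the 38 members, ligand FPKM was close in the libraries, at 349 in the wild type and 331 in the knockout, while its make-up by role differed. Roles were assigned by main source or by main target, without overlap, so that Ccl25, listed as epithelial, also draws T cells. Ligands listed under T cells and NK cells made up 7.82% of the sum in the wild-type and 3.27% in the knockout library. Of their 27.3 and 10.8 FPKM, Ccl5 alone had 16.2 and 4.13. The share of follicle and lymphoid ligands was 9.66% and 6.43%, and that of eosinophil ligands was 5.49% and 8.61%. Epithelial ligands held 26.2% in both libraries, stromal ligands 7.18% and 6.52%, and monocyte and myeloid ligands 43.4% and 48.9%, most of the last being Ccl6. Neutrophil ligands held 0.131% and 0.104%.

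**Figure D1:**
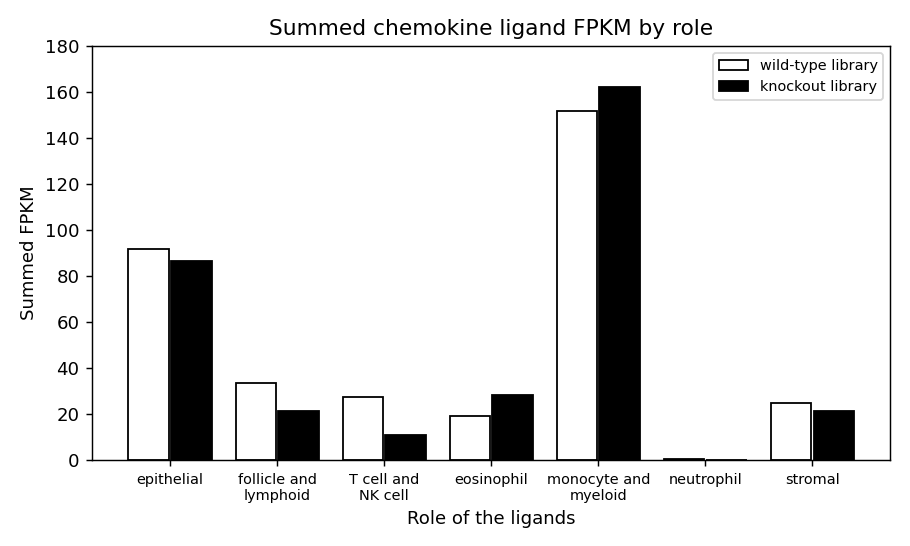
Summed FPKM of the chemokine ligands of each role in the wild-type library (white bars) and the knockout library (black bars), with 1 library per bar and therefore no error bars. T cell and NK cell ligands summed to 27.3 and 10.8 FPKM, follicle and lymphoid ligands to 33.7 and 21.3 FPKM, and eosinophil ligands to 19.2 and 28.5 FPKM.

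Of the 38 members, 21 reached 1 FPKM in at least 1 library and 17 stayed below it in both. Of the 21, Ccl24 and Ccl27a passed only through the knockout library and Cxcl10 and Ccl3 only through the wild-type library. On the scale of log2(FPKM + 1), the knockout library was at least 2-fold above the wild type for 1 of the 21 (Ccl24) and at least 2-fold below it for 2 (Ccl5 and Cxcl13). Over all 13479 genes of at least 1 FPKM, 1.61% were called higher and 2.51% lower by the same rule. The median log2 ratio of the 21 was -0.18, beside -0.05 over all genes compared. With at least 10 reads summed over both libraries, 28 members could also be read by their counting intervals. The interval lay above 1 for 4 of the 28, against 14.3% of the 15875 genes with that many reads, and below 1 for 10 of the 28, against 23.5%. The 4 were Ccl24, Ccl11, Ccl6 and Cxcl11, and the share of members called higher was the same as the background. GENCODE M21 lists Cxcl11 as a polymorphic pseudogene.

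**Figure D2:**
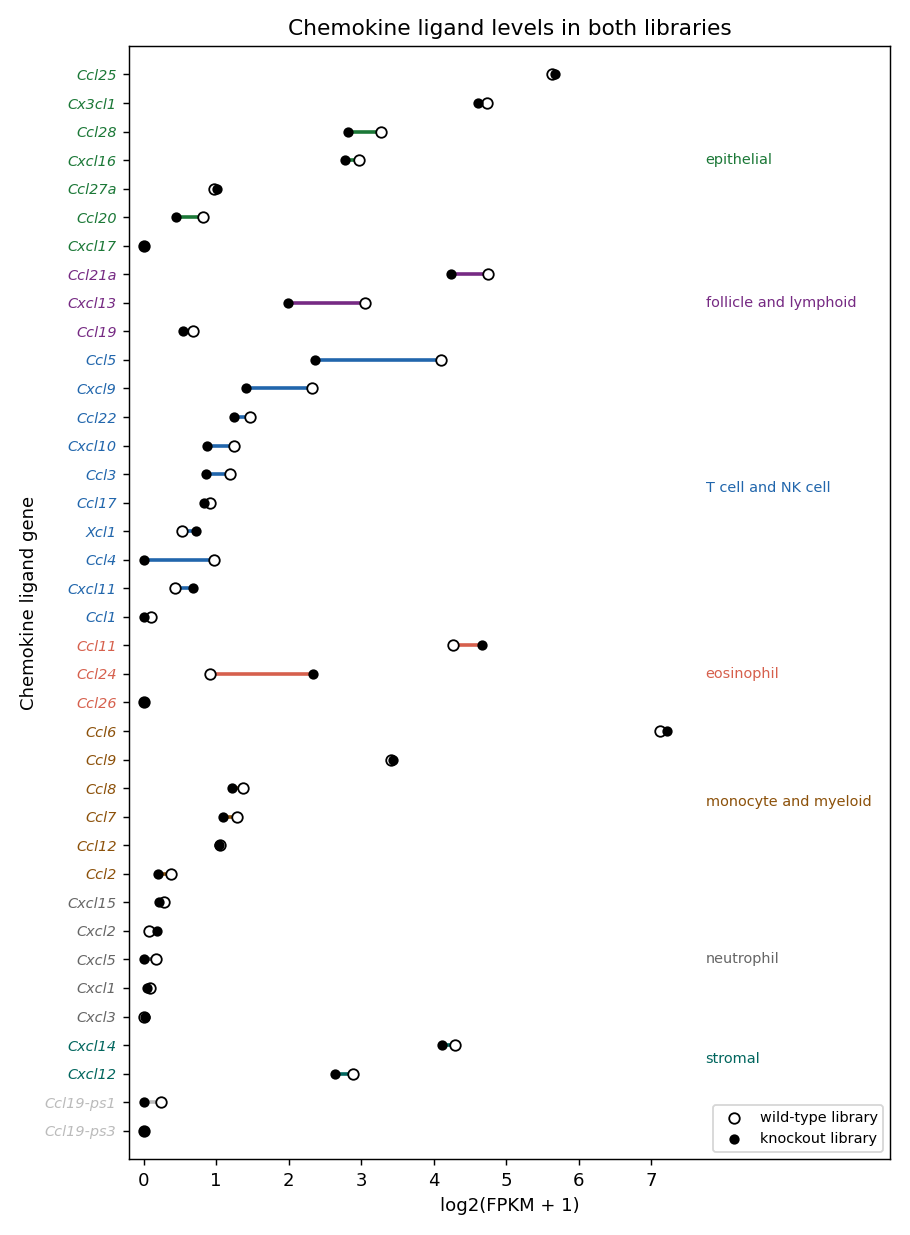
Level of every chemokine ligand as log2(FPKM + 1), with the wild-type library as an open circle, the knockout library as a filled circle and the line between them coloured by role. Ccl6 and Ccl25 lie highest in both libraries with nearly overlapping circles, the longest lines are those of Ccl5 and Ccl24, and the neutrophil ligands lie near 0.

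Epithelial ligands differed little at their highest levels. Ccl25 (chromosome 8, 4325210 to 4360020, plus strand), the ligand of the gut-homing receptor CCR9, had 48.7 FPKM in the wild-type and 49.95 FPKM in the knockout library, from 6313 and 6567 reads. Its fold was 1.03 (interval 0.991 to 1.06), which is the narrowest interval among the members. Cx3cl1, the membrane-anchored chemokine fractalkine, had 25.7 and 23.4 FPKM, and Cxcl16, the other membrane-anchored ligand, had 6.80 and 5.87 FPKM. Both were slightly lower in the knockout library, by 1.10-fold (1.03 to 1.18) for Cx3cl1 and by 1.16-fold for Cxcl16, whose interval of 0.993 to 1.35 spans 1.

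Ccl28 (chromosome 13, 119623819 to 119654359), which attracts antibody-secreting cells through CCR10, had 8.66 FPKM in the wild-type and 6.08 FPKM in the knockout library. It was 1.42-fold lower in the knockout library (1.27 to 1.60), from 731 and 520 reads, and had the lowest fold among the epithelial ligands whose interval left out 1. Ccl20, which draws CCR6-bearing B cells and dendritic cells to follicle-associated epithelium, had 0.767 and 0.359 FPKM from 19 and 9 reads. Its 2.14-fold difference came with an interval of 0.922 to 5.37, so that no difference was detectable at this depth. Ccl27a had 0.966 and 1.02 FPKM, and it overlaps Il11ra1 on the opposite strand, which had 3.52 and 3.20 FPKM. Cxcl17, a mucosal chemokine, was listed at 0 in both libraries, which with 3 reads as the limit allows up to 0.226 FPKM in the wild-type and 0.223 FPKM in the knockout library.

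Follicle and lymphoid ligands were lower in the knockout library. Cxcl13 (chromosome 5, 95956951 to 95961068, plus strand), made by follicular stromal cells to bring in B cells through CXCR5, had 7.29 FPKM from 146 reads in the wild-type and 2.95 FPKM from 60 reads in the knockout library. That is 2.47-fold lower, with an interval of 1.81 to 3.39. Ccl21a (chromosome 4, 42772860 to 42773993, minus strand), a CCR7 ligand of lymphatic vessels and T cell zones, had 25.9 and 17.9 FPKM, 1.44-fold lower (1.24 to 1.69). The mouse genome holds near-identical copies of Ccl21, so how reads were divided among them makes the value of Ccl21a uncertain. Ccl19, the other CCR7 ligand, had 9 and 7 reads, or 0.596 and 0.457 FPKM, and its interval of 0.432 to 4.12 for the fold by which it was lower spans 1. Both follicle ligands of at least 1 FPKM were therefore lower in the knockout library, at different sizes.

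Beside these values, the B cell markers Ms4a1, Cd79a, Cd79b and Pax5 were lower in the knockout library in 4 of 4 cases. Each interval lay below 1, against 23.5% of genes with at least 10 reads. The B cell markers summed to 19.6 FPKM in the wild-type and 7.16 FPKM in the knockout library. Of 5 listed markers of follicular stroma, Cr2, Tnfsf11, Madcam1 and Pdpn were measured, and their sum was 8.51 and 6.61 FPKM. The interval lay below 1 for 1 of the 4 (Cr2, which B cells also express), against 23.5% of all genes with at least 10 reads. It spanned 1 for 3, and no marker of the 4 was at 0. Lymphatic and blood vessel markers (Pecam1, Cdh5, Kdr, Lyve1 and Prox1) summed to 25.3 and 26.8 FPKM. Whether the number of follicles in each piece of tissue had a part in the difference of Cxcl13 and Ccl21a was not tested.

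Ligands of T cells and NK cells held the lowest fold of the members with reads in both libraries, that of Ccl5. Ccl5 (chromosome 11, 83525778 to 83530518, minus strand), a product of activated T cells and NK cells, had 16.2 FPKM from 271 reads in the wild-type and 4.13 FPKM from 70 reads in the knockout library. It was 3.92-fold lower (3.01 to 5.18). Ccl4, which lies in the same chromosome 11 cluster, had 11 wild-type reads (0.956 FPKM) and 0 knockout reads. With the knockout value set to a floor of 3 reads, Ccl4 was 3.72-fold lower, which leaves out the counting error of the wild-type reads. The counting interval begins at 2.54, so a fold below 3.72 is possible. Ccl3, its neighbour, had 17 and 11 reads, with an interval of 0.692 to 3.70 for a 1.57-fold difference.

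The T cell markers Cd3d, Cd3e, Cd3g, Cd8a and Cd4 were lower in the knockout library in 5 of 5 cases. Each interval lay below 1, against 23.5% of all genes with at least 10 reads. The 5 markers summed to 11.5 FPKM in the wild-type and 5.19 FPKM in the knockout library, a ratio of 2.22, beside the 3.92-fold of Ccl5. No T cell marker was at 0, and the part of T cell content in the values of Ccl5 and Ccl4 was not tested.

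Of the genes of the interferon-induced CXCR3 ligands, Cxcl9 and Cxcl10 were lower in the knockout library and Cxcl11 was not. Cxcl9 (chromosome 5, 92321347 to 92328079, minus strand) had 3.996 FPKM from 210 reads in the wild-type and 1.67 FPKM from 89 reads in the knockout library, 2.39-fold lower (1.86 to 3.10). Cxcl10, beside it on the chromosome, had 1.38 and 0.830 FPKM, 1.66-fold lower (1.06 to 2.64). Cxcl11, the next gene in the cluster, is listed as a polymorphic pseudogene in GENCODE M21 and went the other way. It had 0.348 FPKM from 23 reads in the wild-type and 0.597 FPKM from 40 reads in the knockout library. Its fold of 1.72 had an interval of 1.003 to 3.003, which barely leaves out 1. Cxcl10 and Cxcl11 lie within the span of Art3 on the opposite strand, which had 2.204 and 2.46 FPKM. The sources used here do not say whether the counting used strand, so their reads and those of Art3 cannot be told apart where exons overlap. The limit is wider, since 14 of the 38 members overlap another gene, Ccl25 and Cxcl16 among them.

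The remaining ligands of this role were low. Ccl22, a CCR4 ligand of dendritic cells, had 1.75 and 1.36 FPKM, 1.28-fold lower with an interval of 0.892 to 1.86. Ccl17, the other CCR4 ligand, had 8 and 7 reads. Xcl1, made by NK cells and CD8 T cells to attract cross-presenting dendritic cells, had 4 and 6 reads, and Ccl1 had 3 and 0. None of these 4 differed beyond its counting interval.

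The eotaxin genes Ccl24 and Ccl11, the ligands with reads listed under the eosinophil role, were higher in the knockout library. Ligands listed under other roles are not part of this group, even where they can bind CCR3. CCL5 can do so, and Ccl5 was 3.92-fold lower in the knockout library. Ccl24 (chromosome 5, 135569937 to 135573049, minus strand), or eotaxin-2, had 0.886 FPKM from 20 reads in the wild-type and 4.07 FPKM from 93 reads in the knockout library. That is 4.59-fold higher, with an interval of 2.81 to 7.86, and it was the highest fold among the 28 members with at least 10 reads. Ccl11 (chromosome 11, 82057823 to 82062955, plus strand), or eotaxin-1, had 18.3 and 24.4 FPKM, 1.34-fold higher (1.16 to 1.54). Ccl26 was listed at 0 in both libraries, which allows up to 0.610 FPKM in the wild-type and 0.602 FPKM in the knockout library.

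Of 5 eosinophil markers, the surface lectin gene Siglecf had 1.30 and 7.754 FPKM, the eotaxin receptor gene Ccr3 had 0.421 and 0.865 FPKM and the interleukin-5 receptor gene Il5ra had 8 and 22 reads. The granule protein genes did not go with them. Epx had 2 and 3 reads, and Prg2 had 16 and 7. The 5 markers summed to 2.98 and 9.503 FPKM, most of it Siglecf, which tuft cells also express. Macrophages can be a source of Ccl24. The macrophage markers Adgre1, Csf1r, Cd68, Cd163 and C1qa summed to 71.8 and 52.5 FPKM. Of these, 2 of 5 were higher in the knockout library, as were 10667 of all 27275 genes. The part of either cell type in the Ccl24 value was not tested.

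**Figure D3:**
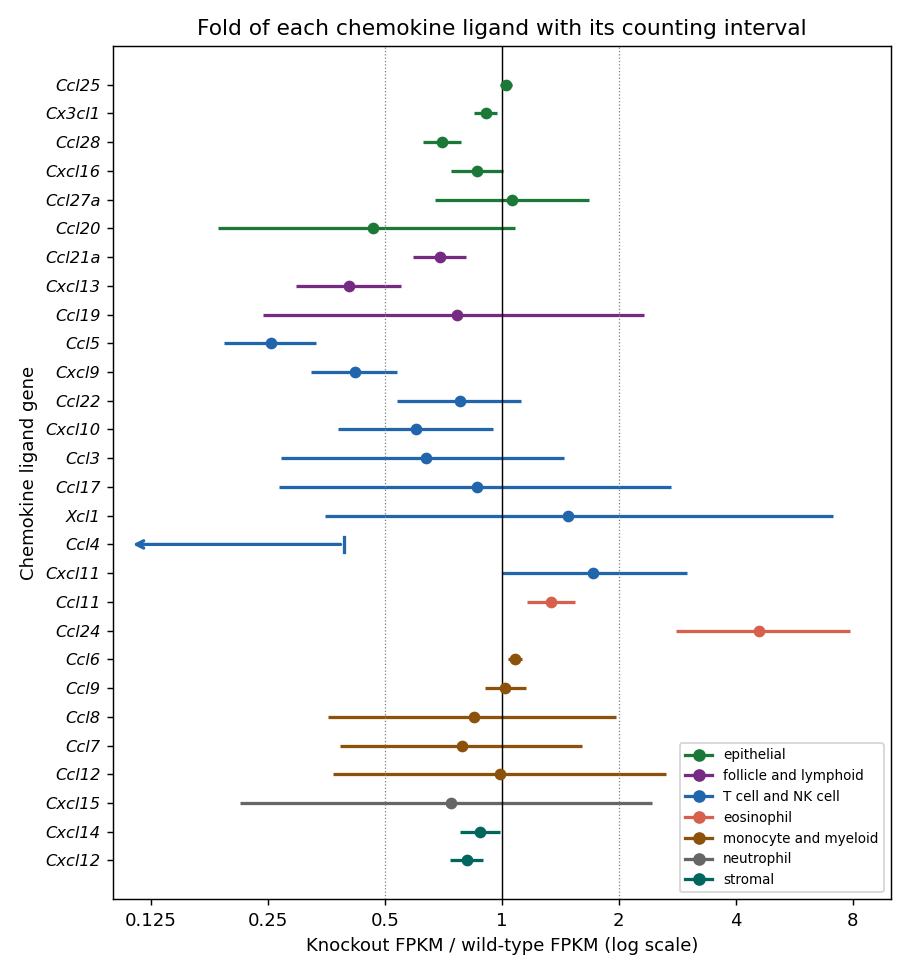
Ratio of knockout to wild-type FPKM on a log scale for the 28 chemokine ligands with at least 10 reads over both libraries, as points coloured by role with the 95% counting interval as a line. The arrow of Ccl4 starts at the upper bound of its interval, since it had 0 reads in the knockout library, and dotted lines mark 2-fold. Ccl24 lies at 4.59 with its whole interval above 2, Ccl5 lies at 0.255 with its whole interval below 0.5, and Ccl25 lies at 1.03.

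Monocyte and myeloid ligands were nearly equal. Ccl6 (chromosome 11, 83587882 to 83593087, minus strand), a rodent chemokine that binds CCR1, was the most abundant ligand, at 138 FPKM in the wild-type and 148 FPKM in the knockout library, and stood at rank 319 and rank 290 among all genes. It was 1.08-fold higher in the knockout library (1.03 to 1.12). Ccl9, its neighbour, also a rodent CCR1 ligand, had 9.65 and 9.86 FPKM, with a fold of 1.02 (0.903 to 1.16). The monocyte attractants Ccl2, Ccl7, Ccl8 and Ccl12 lay between 0.149 and 1.57 FPKM, from 3 to 20 reads each, and no difference in them was detectable at this depth.

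Stromal ligands were slightly lower in the knockout library. Cxcl12, which retains CXCR4-bearing cells, had 6.39 and 5.20 FPKM from 911 and 751 reads, 1.23-fold lower (1.11 to 1.36). Cxcl14 had 18.7 and 16.4 FPKM, 1.14-fold lower (1.01 to 1.28). The fibroblast markers Pdgfra, Pdgfrb, Col1a1, Col3a1 and Dcn summed to 120 and 124 FPKM.

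Neutrophil attractants were near the limit of detection in both libraries. Cxcl1, Cxcl2, Cxcl3 and Cxcl5 had at most 4 reads each in the wild-type library and at most 5 in the knockout library, and Cxcl15 had 8 and 6. The kappa-B site was in the promoter windows of Cxcl1, Cxcl2 and Cxcl3, each as GGGAATTTCC between -97 and -62, and the low levels say nothing of what binds there. Their receptor gene Cxcr2 had 0 and 3 reads. The unprocessed pseudogenes Ccl19-ps1 and Ccl19-ps3 had 1 read in all.

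Most signalling receptor genes with enough reads were lower in the knockout library. Of 17 listed signalling receptors 16 were measured, and 13 had at least 10 reads, counted in whole reads. The counting interval lay below 1 for 9 of these 13 and above 1 for 1 (Ccr3), against the background of 23.5% and 14.3%, and it spanned 1 for 3. The median log2 ratio of the 13, taken from reads, was -1.06, beside -0.27 for the 28 ligands and -0.06 for all genes with at least 10 reads. These lists differ in level and in the cells that carry them, and no test compared them.

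The receptors of naive and follicular lymphocytes were among the lowest. Ccr7, which leads lymphocytes and dendritic cells to CCL19 and CCL21, had 2.35 FPKM in the wild-type and 0.544 FPKM in the knockout library, 4.32-fold lower (2.60 to 7.54), beside the 1.44-fold of Ccl21a. Cxcr5, the receptor of CXCL13 on B cells, had 1.31 and 0.374 FPKM, 3.50-fold lower (2.15 to 5.91), beside the 2.47-fold of Cxcl13. Cxcr4 had 6.25 and 1.85 FPKM, 3.38-fold lower (2.52 to 4.61), while its ligand Cxcl12 was 1.23-fold lower. The alternative CXCL12 receptor Ackr3, which stromal and vascular cells carry, had 3.05 and 2.79 FPKM with an interval that spans 1.

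Receptors of effector T cells and of mucosal homing were lower as well. Cxcr3 had 33 and 7 reads, 4.78-fold lower (2.08 to 12.8), and Ccr4 had 29 and 9, 3.27-fold lower (1.505 to 7.84). Ccr9 had 1.05 and 0.546 FPKM, 1.92-fold lower (1.501 to 2.48), while its ligand Ccl25 had the fold of 1.03 given above. Ccr10 was 2.09-fold lower (1.14 to 3.97) beside the 1.42-fold of Ccl28, and Cxcr6 was 2.10-fold lower (1.31 to 3.42) beside the 1.16-fold of Cxcl16. Ccr6 had 1.05 and 0.447 FPKM, and its read numbers could not be recovered.

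Receptors of monocytes and macrophages differed less. Ccr1 had 4.09 and 3.90 FPKM and Ccr2 had 0.688 and 0.545 FPKM, each with an interval that spans 1. Cx3cr1, which marks intestinal macrophages, was 1.37-fold lower (1.08 to 1.73). Ccr3 was 2.06-fold higher (1.24 to 3.50), in the same direction as Ccl11 and Ccl24, the only ligands paired with it here. The products of Ccl5, Ccl7, Ccl8 and Ccl28 can also bind CCR3, and these genes had lower FPKM in the knockout library. The intervals of Ccl7 and Ccl8 span 1.

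**Figure D4:**
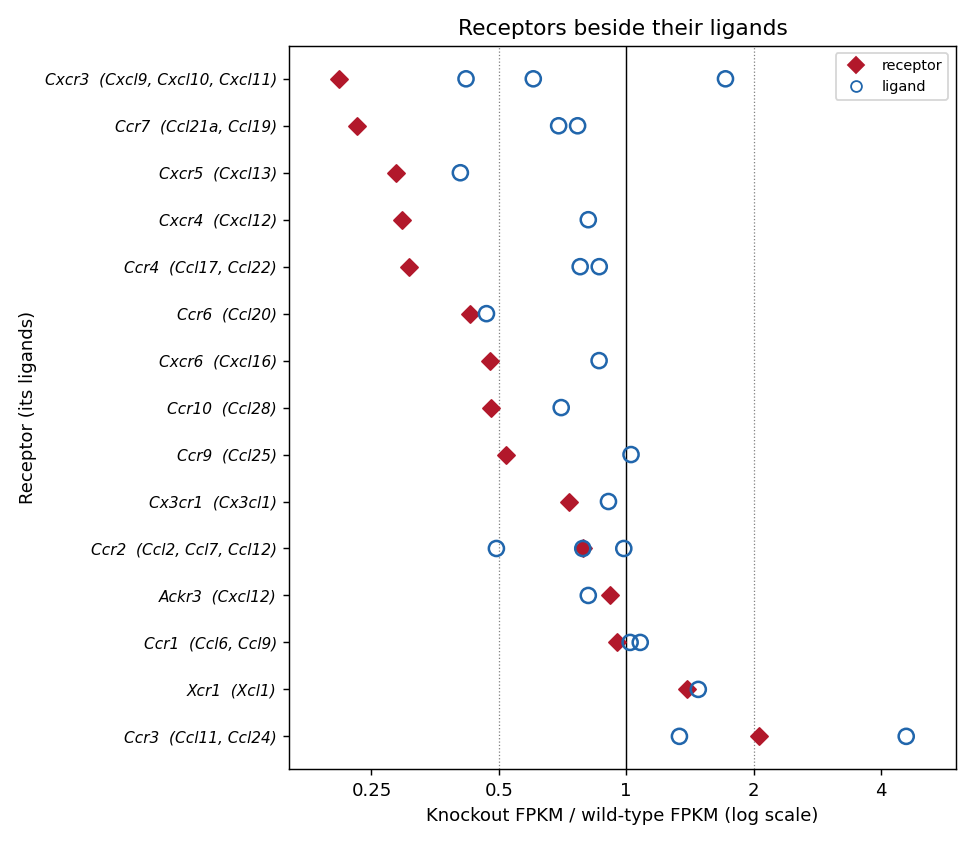
Ratio of knockout to wild-type FPKM on a log scale for each receptor gene (diamonds) and the ligand genes paired with it here (open circles). Rows are ordered by the receptor, with dotted lines at 2-fold. Not every ligand of a receptor is paired with it, and several members had fewer than 10 reads. Cxcr3, Ccr7, Cxcr5, Cxcr4 and Ccr4 lie left of their ligands, Ccr9 lies at 0.520 with Ccl25 at 1.03, and Ccr3 lies at 2.06 between Ccl11 at 1.34 and Ccl24 at 4.59.

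Atypical receptors bind chemokines without G protein signalling, though such binding is disputed for Ccrl2, which is on the list. Among the 5 listed, Ackr4, a scavenger of CCL19, CCL21 and CCL25, was 1.58-fold higher in the knockout library (1.27 to 1.96). The intervals of the other 4 spanned 1. Of 4 listed ligands outside the naming rule 3 had at least 10 reads, and the interval lay below 1 for 1 of them (Mif) and spanned 1 for the other two. Mif had 36.7 and 29.9 FPKM, 1.23-fold lower (1.07 to 1.41), and Pf4, made by platelets and some macrophages, had 3.42 and 2.83 FPKM with an interval that spans 1. Of 15 genes of receptor signalling, 14 had recovered reads, with the interval above 1 for 6 and below 1 for 6. Each of the 14 had well over 10 reads, which narrows the interval. The background for each list in this paragraph was 14.3% above 1 and 23.5% below 1. The leukocyte migration genes Dock2 and Elmo1 were 1.93-fold (1.60 to 2.33) and 1.72-fold lower (1.52 to 1.94), and Pik3cg was 1.96-fold higher (1.68 to 2.28). The protease genes that trim or shed chemokines differed little, and Dpp4, which cleaves the ends of many of them and sits on the brush border, had 229 and 242 FPKM.

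By position, the 12 members on chromosome 11 did not move together. Their summed FPKM was 195 and 197, with the interval above 1 for Ccl6 and Ccl11 and below 1 for Ccl5 and Ccl4. The 11 members on chromosome 5 summed to 14.3 and 10.5 FPKM, with Ccl24 and Cxcl11 higher and Cxcl13, Cxcl9 and Cxcl10 lower. The chromosome 8 members Ccl17, Ccl22, Ccl25 and Cx3cl1 summed to 77.1 and 75.5 FPKM, and the 5 members on chromosome 4 to 27.6 and 19.4 FPKM, most of which is Ccl21a.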

How the data were processed

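RNA of small intestine was taken up in TRIzol and its cDNA amplified with SMART-SeqII, per the labels' protocols. The authors deposited 1 table of FPKM values with 1 column per library. The submitters' processing notes list Bowtie2 2.2.3, HTSeq 0.6.0 and mm10 with no role or order. The sources used here do not state strand, annotation release or pooling of mice.

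Columns were matched to libraries by name and gene identifiers to GENCODE M21 (GRCm38, the assembly of mm10) for 27222 of 27275 rows. FPKM times summed exon length gave whole reads, within 0.01, for 90.6% of wild-type and 90.7% of knockout values above 0. These reads served for intervals only. Without molecular identifiers, intervals and the floor of 3 reads cover counting error only, and a 1-library design allows no test. Called genes have a log2 ratio of at least 2-fold with a pseudocount of 1, among genes that reach 1 FPKM in either library; interval calls need 10 reads in both libraries together. The alternatives varied the pseudocount, the filter and the scaling.

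Named genes are all members of the naming rule, the receptors of named ligands and listed pathway genes at least 2-fold apart; Ackr3, Ackr4, Cxcr2, Dock2, Elmo1, Pik3cg, Mif, Pf4 and Dpp4 were named after their values were seen. The members, lists and ligand-receptor pairs were chosen with earlier results of these data known. The results of 2 listed genes are not reported here, and no count includes them. Of the 129 other listed symbols, 8 matched no row and were not analysed here: Ccl21b, Ccl21c, Ccl21d, Ccl27b, Cxcr1, Ly6g, Mpo and Fdcsp. The 3 measured neutrophil markers, S100a8, S100a9 and Csf3r, summed to 1.63 and 0.534 FPKM. Intervals were computed with SciPy 1.17.1 in Python 3.11.15 and tested on simulated data.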

Additional observations from a re-analysis of the deposited data

How the results depend on the processing

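As reported, 1 ligand was at least 2-fold higher and 2 were at least 2-fold lower. With a pseudocount of 5 there was 0 higher and 1 lower (Ccl5), since Ccl24 and Cxcl13 are low; over all genes the shares were then 0.453% and 0.905%. With a pseudocount of 0.1 there was 1 higher and 3 lower, Cxcl9 being the addition, while the shares over all genes rose to 2.63% and 4.27%. With at least 5 FPKM there was 0 higher, since Ccl24 is below that level, and 2 of 12 were lower. The shares over all genes were 1.27% and 2.53%. With at least 10 reads and folds from reads, 1 was higher (Ccl24) and 5 were lower (Ccl5, Cxcl13, Cxcl9, Ccl20 and Ccl4). That setting was chosen after seeing the data, and its shares over all genes were 3.89% and 6.36%. Rescaling without the 20 most abundant genes, centring on the median and dropping the filter gave 1 and 2 again. In that order, the shares over all genes were 1.65% and 2.44%, 1.71% and 2.29%, and 0.796% and 1.24%. The median log2 ratio of the members ranged from -0.27 to -0.11 over these settings. No paired analysis was possible because each genotype has 1 library, and for the same reason no library could be left out. Among the 21 members compared, rescaling and centring each left the sign of 20, and Ccl12, with 10 reads in each library, was the exception. Depth limits the 10 members with under 10 reads.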

Other observations

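The order of the ligands by level depends on the length used for a gene. FPKM divides by all exons of a gene, and for Ccl5 these sum to 960 bases, while its principal transcript in GENCODE M21 has 532. Divided by the principal transcript, Ccl5 had a value of 29.2 in the wild-type and 7.45 in the knockout library, and its place among the 18 compared members that have such a transcript went from 6 to 3 in the wild-type library. Cxcl10, with 2252 bases of exons and a principal transcript of 1094, went from 1.38 to 2.83 in the wild-type and from 0.830 to 1.71 in the knockout library. The folds between the libraries are the same under either length. Ccl25 had 6313 wild-type reads, more than the 4304 of Ccl6, and lay below it in FPKM because its exons sum to 7445 bases against 1795. Reads from any exon are included in both versions, so the second is a rescaling and not a measure of that transcript.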
